A study of Mus musculus with 15 samples.

Results

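The 10 circadian clock genes described here were Arntl (the gene for BMAL1), Npas2, Per1, Per2, Per3, Ciart, Nr1d1, Nr1d2, Dbp and Tef, out of 33340 genes in a count table of 15 mouse lung RNA-seq libraries. They were found in the table by gene symbol. The set itself had been selected on its levels in these same libraries, given as CPM (read counts scaled to a common library size), so every level and every fold change of a member below is a description and carries no p-value. All 10 were abundant enough to enter the fit across genes, in which 17457 genes were tested.

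The study followed bleomycin-induced pulmonary fibrosis in whole lungs of male C57BL/6 mice that were 10 to 12 weeks old. Bleomycin is a DNA-damaging antibiotic that scars the lung when it is given through the trachea, here at 5 U/kg in 50 µL. Libraries of polyadenylated RNA came from control lungs at day 0 (n = 4) and from lungs at 7 days (n = 4), 14 days (n = 4) and 21 days (n = 3) after the drug. Day 0 replicate 4 was titled a control but carried a bleomycin entry in its treatment label, and it was kept by its title. No label says that replicates were separate animals. The authors call their lung RNA-seq samples of days 0, 7 and 14 biological replicates, without saying that each was a separate animal. P-values therefore measure the spread between these libraries. The time of day at which lungs were collected is not given in the sources used here. Whole lung is a mixture of cells, in which fewer cells of a type and less RNA per cell cannot be told apart.

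The mammalian clock is a transcriptional loop that runs in most cells of the lung. BMAL1 pairs with CLOCK, or with its relative NPAS2, on E-box sequences and drives the genes for the period and cryptochrome proteins, which then repress BMAL1 and CLOCK. The same pair drives Nr1d1 and Nr1d2, whose products REV-ERBα and REV-ERBβ repress Arntl and Npas2 through RORE sequences, and it drives Dbp, whose product acts on D-box sequences together with TEF and HLF and against NFIL3. Arntl RNA and Dbp RNA are known to peak at nearly opposite times of day.

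Promoter sequences from RefSeq (GRCm38.p6) show where these motifs stood in 9 of the 10 members, which together had 12 windows of 250 bases before to 50 bases after a transcript start. Per2 had no window and was not searched. The search covered both strands for the E-box CACGTG, the E′-box CACGTT, the D-box TTATGTAA or TTACGTAA and the RORE ANTAGGTCA or ANTGGGTCA, and no member's window held more than one kind of motif. Of 32851 mouse promoter windows of the same length, 7.15% held the E-box, 4.68% the E′-box, 1.06% the D-box and 1.45% the RORE. The E-box was found in 3 members (Ciart, Per1 and Tef), and the other motifs in 1 member each. These are counts of genes, some with several windows, whereas the shares are of windows. The stretches below carry these matches, with the motif in capitals and each read 5′ to 3′ on the gene's own strand.
Ciart, 3 E-boxes: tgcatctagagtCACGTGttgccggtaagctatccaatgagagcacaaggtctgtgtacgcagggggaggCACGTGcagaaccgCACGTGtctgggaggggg
Per1, E-box: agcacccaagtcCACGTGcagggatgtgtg
Tef, E-box of the first start: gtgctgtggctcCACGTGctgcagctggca
Tef, E-box of the second start: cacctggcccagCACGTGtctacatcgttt
Nr1d1, E′-box: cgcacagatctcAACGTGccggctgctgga
Per3, 2 D-boxes: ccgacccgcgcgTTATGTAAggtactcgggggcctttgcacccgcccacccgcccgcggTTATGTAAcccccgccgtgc
Arntl, RORE: aggcagaaAGTAGGTCAgggacgga

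The Ciart stretch lies on the minus strand at chr3:95882255-95882356, upstream of all 6 transcripts of the gene in GENCODE M21. The Per1 stretch (plus strand, chr11:69098771-69098800) is in an intron of 1 of its 6 transcripts, because that transcript starts further upstream. The Tef stretches are on the plus strand, one at chr15:81802534-81802563 in an exon of 1 of 10 transcripts and the other at chr15:81811264-81811293 in an intron of 3 of them. The Nr1d1 stretch (minus strand, chr11:98775388-98775417) and the Per3 stretch (minus strand, chr4:151044804-151044882) lie upstream of every transcript of their genes. The Arntl stretch (plus strand, chr7:113207531-113207555) begins 20 bases after a RefSeq start, in an exon of 2 of 6 transcripts. A match of letters is not evidence that a factor was bound in these lungs.

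The mean levels of the period genes, Ciart, the REV-ERB genes, Dbp and Tef were lower at all 3 later days than at day 0, and those of Arntl and Npas2 were not. In the fit across all genes (edgeR, with a call set at a fold change over 1.5 and an adjusted p under 0.05), 8 of 10 members were called lower at day 7, 7 at day 14 and 5 at day 21, and 0 were called higher on any day. In some alternatives 1 member was called higher, Npas2 at day 7 (for example in DESeq2) or Arntl at day 14. Among all 17457 genes tested, 7.36% were called lower at day 7, 11.2% at day 14 and 10.1% at day 21, and 16.1%, 23.1% and 22.5% were called in either direction. The median log2 fold change of the members was -1.20, -1.33 and -0.94 at the 3 later days, against 0.01, 0.02 and 0.02 for all tested genes. Every later library lay below every day 0 library for 6 members at day 7, 7 at day 14 and 4 at day 21, where 13.2%, 14.4% and 16.0% of all tested genes did so. Because the members were selected on these libraries and the 3 comparisons share the day 0 libraries, nothing about the group is read from these counts.

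**Figure D1:**
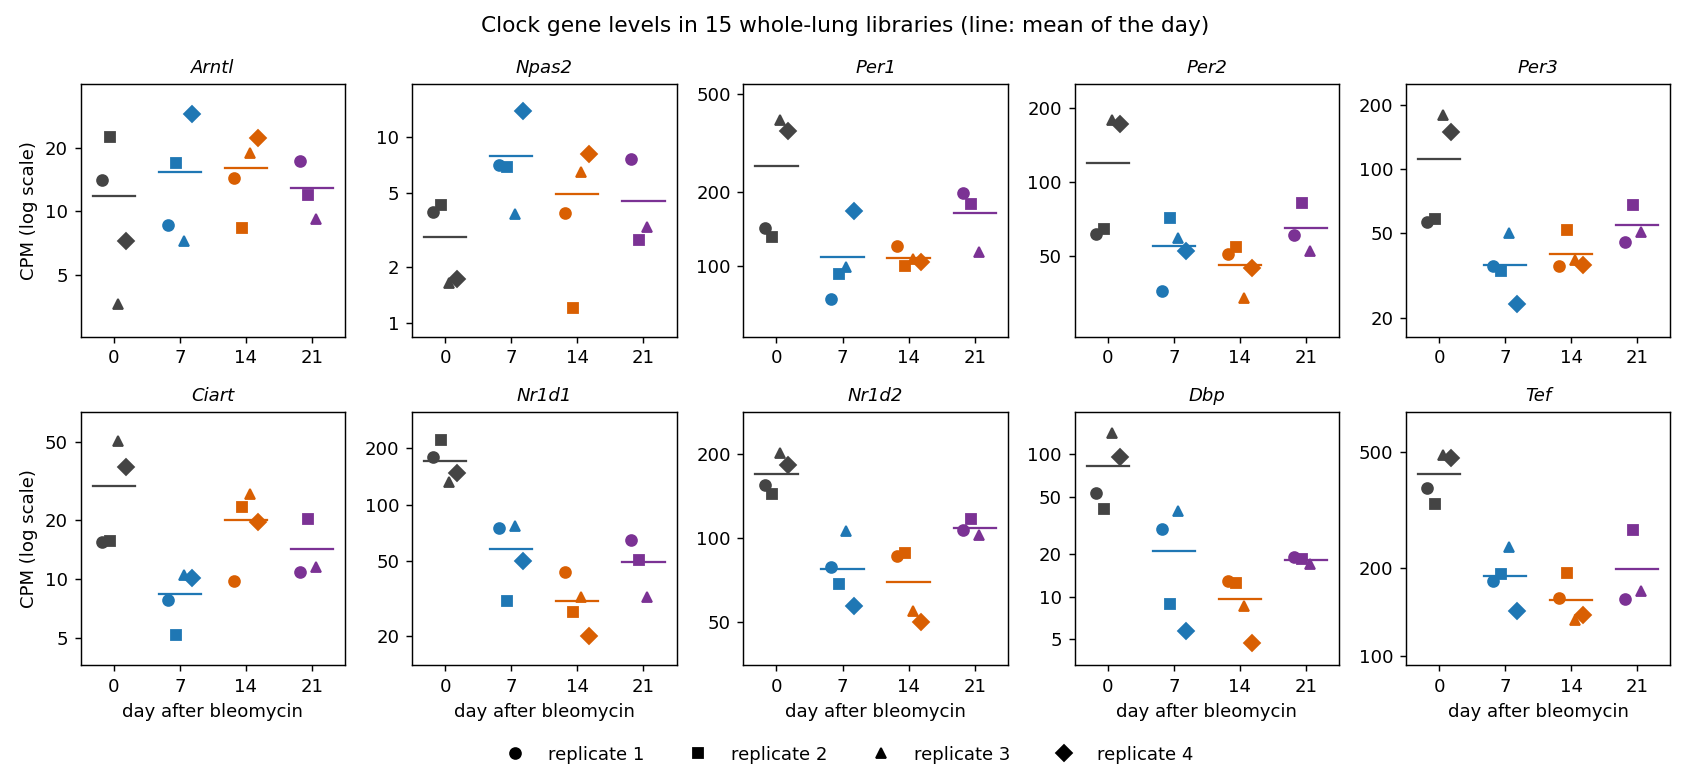
CPM (log scale) of the 10 members against the day after bleomycin, with 1 symbol per library, its shape giving the replicate number, and a line at the mean of each day. Nr1d1, Nr1d2, Dbp and Tef had all later libraries below all 4 day 0 libraries, while Arntl and Npas2 overlapped with day 0 on every day.

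The day 0 libraries were themselves split, and this touches each comparison below. The 3 period genes, Ciart and Dbp were 2.5-fold to 2.86-fold higher in day 0 replicates 3 and 4 than in replicates 1 and 2, and Arntl was 3.40-fold and Npas2 2.44-fold higher in replicates 1 and 2. Nr1d1 (0.694-fold), Nr1d2 (1.29-fold) and Tef (1.37-fold) differed less between the 2 pairs. The share of counts from mitochondrial genes was 2.28% and 2.31% in replicates 1 and 2 and 4.22% and 4.04% in replicates 3 and 4. The summed CPM of 7 cardiac muscle markers was also lower in replicates 1 and 2 (29.3 and 49.6) than in replicates 3 and 4 (293 and 205), as was that of 5 adipose markers (19.8 and 42.8 against 68.7 and 65.2). Cidec, 1 of the 5, was level at 17.1 to 19.3 CPM, and the other 4 summed to 1.55 and 24.5 against 51.6 and 45.9. Jchain, a plasma cell marker, was higher in replicates 1 and 2 (22.7 and 46.9 CPM) than in replicates 3 and 4 (5.396 and 2.06), while the sums of Cd79a, Ms4a1 and Mzb1 overlapped (74.8 and 46.7 against 60.2 and 36.4). Their part in the split was not tested. The 15 libraries held 15652008 to 18020661 counts each, so depth differed little, and all 8 lung markers were above 1 CPM in every library.

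Arntl encodes BMAL1, the activator without which the loop stops. At day 0 it was at 14.1, 22.6, 3.62 and 7.20 CPM in replicates 1 to 4, which is a 6.25-fold span within 1 group. At day 7 it was at 8.61, 17.0, 7.20 and 29.0 CPM, at day 14 at 14.4, 8.35, 19.1 and 22.4 CPM, and at day 21 at 17.4, 12.02 and 9.18 CPM. Only day 7 replicate 4 lay above all day 0 libraries, and no later library lay below them. Its log2 fold changes at days 7, 14 and 21 were 0.38 ± 0.50, 0.43 ± 0.50 and 0.12 ± 0.55 (SE) at days 7, 14 and 21, each smaller than its standard error. Against day 0 replicates 1 and 2 alone they were -0.27, -0.21 and -0.54, and against replicates 3 and 4 alone 1.48, 1.53 and 1.20, so the sign depended on which controls were used.

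Npas2 encodes a partner of BMAL1 that can stand in for CLOCK, and it was the least abundant member. Day 0 libraries had 3.95, 4.29, 1.65 and 1.73 CPM, with the low pair again in replicates 3 and 4. Day 7 libraries had 7.08, 6.87, 3.84 and 13.7 CPM, of which 3 of 4 were above all day 0 libraries. Values were 3.90, 1.21, 6.47 and 8.09 CPM at day 14 and 7.54, 2.79 and 3.29 CPM at day 21, overlapping with day 0 on both days. Fitted log2 fold changes were 1.44 ± 0.53, 0.76 ± 0.53 and 0.64 ± 0.57, and libraries of each later day overlapped with day 0. They stayed positive against either pair of day 0 libraries, from 0.11 at day 21 with replicates 1 and 2 to 2.19 at day 7 with replicates 3 and 4.

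Nr1d1, the gene for REV-ERBα, was separated between day 0 and later lungs. Day 0 libraries had 179.7, 223, 132 and 147 CPM, whereas day 7 libraries had 74.9, 30.7, 76.95 and 50.1 CPM. Day 14 libraries had 43.8, 27.0, 32.3 and 19.9 CPM and day 21 libraries 65.3, 50.9 and 32.4 CPM. No later library reached the lowest day 0 library. The mean was 171 ± 40.2 CPM (SD, n = 4) at day 0 and 2.93-fold, 5.55-fold and 3.44-fold lower at days 7, 14 and 21, with log2 fold changes of -1.55 ± 0.30, -2.47 ± 0.31 and -1.78 ± 0.33. Across 20 other ways of processing at day 14 the value ran from -2.73 to -2.22. Nr1d1 shares 263 exonic bases with Thra on the opposite strand, which had 783 to 1560 counts per library, and whether counting used strand is not given in the sources used here.

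Nr1d2 encodes REV-ERBβ, the partially redundant partner of REV-ERBα. It had 154, 143, 201 and 182 CPM at day 0, then 78.9, 68.4, 106 and 57.0 CPM at day 7 and 86.1, 88.1, 55.0 and 50.2 CPM at day 14. The day 21 libraries were close together at 107, 117 and 103 CPM. All later libraries lay below all day 0 libraries, and the lowest day 21 library was above 7 of the 8 libraries of days 7 and 14. The log2 fold changes were -1.13 ± 0.20, -1.28 ± 0.21 and -0.64 ± 0.22. With day 0 replicates 1 and 2 alone the day 21 value was -0.48.

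**Figure D2:**
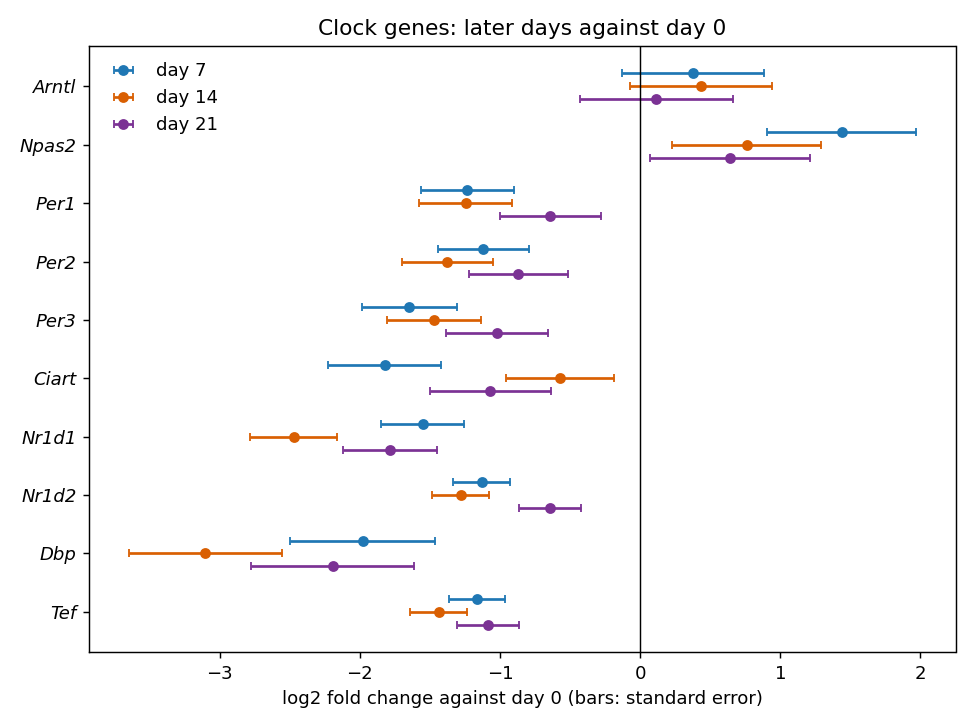
log2 fold change of each member at days 7, 14 and 21 against day 0 from the fit across all genes, with bars of 1 standard error. Dbp (-3.10 ± 0.55) and Nr1d1 (-2.47 ± 0.31) at day 14 lay furthest to the left, their order turning with day 0 replicates 1 and 2 alone (-2.31 and -2.73), Npas2 and Arntl sat to the right of 0, and the other 8 members sat to the left on all 3 days.

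The period genes encode the repressors that close the loop, and all 3 were lower after bleomycin but with day 0 libraries that lay far apart. Per1 had 143, 131, 393 and 352 CPM at day 0, 73.7, 93.0, 99.2 and 167 CPM at day 7, 120.4, 99.6, 106 and 104 CPM at day 14, and 197, 179 and 114 CPM at day 21. The day 14 libraries were all below day 0, whereas day 7 replicate 4 and day 21 replicates 1 and 2 lay between the 2 pairs of day 0 libraries. Its log2 fold changes at days 7, 14 and 21 were -1.23 ± 0.33, -1.24 ± 0.33 and -0.64 ± 0.36. Against day 0 replicates 1 and 2 alone they were -0.35, -0.37 and 0.23, so that at day 21 the direction turned.

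Per2 followed Per1 closely at day 0, with 61.9, 64.7, 179 and 173 CPM. It had 36.2, 71.5, 59.5 and 52.8 CPM at day 7, 51.2, 54.4, 33.8 and 45.0 CPM at day 14 and 61.3, 82.6 and 52.6 CPM at day 21. Only at day 14 were all libraries below all day 0 libraries. Fitted log2 fold changes were -1.12 ± 0.32, -1.37 ± 0.33 and -0.87 ± 0.35. With day 0 replicates 1 and 2 alone they were -0.22, -0.48 and 0.02.

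Per3, the period gene whose promoter held the pair of D-boxes printed above, had 56.4, 58.4, 179 and 149 CPM at day 0. It had 35.1, 33.2, 49.9 and 23.4 CPM at day 7, 34.9, 51.9, 37.6 and 35.6 CPM at day 14 and 45.4, 67.5 and 50.8 CPM at day 21. All libraries of days 7 and 14 were below day 0, and day 21 replicate 2 was above day 0 replicates 1 and 2. The mean was 3.13-fold, 2.77-fold and 2.03-fold lower than at day 0, with log2 fold changes of -1.65 ± 0.34, -1.47 ± 0.34 and -1.02 ± 0.36. These became -0.71, -0.54 and -0.10 against day 0 replicates 1 and 2 alone and -2.24, -2.07 and -1.63 against replicates 3 and 4 alone.

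**Figure D3:**
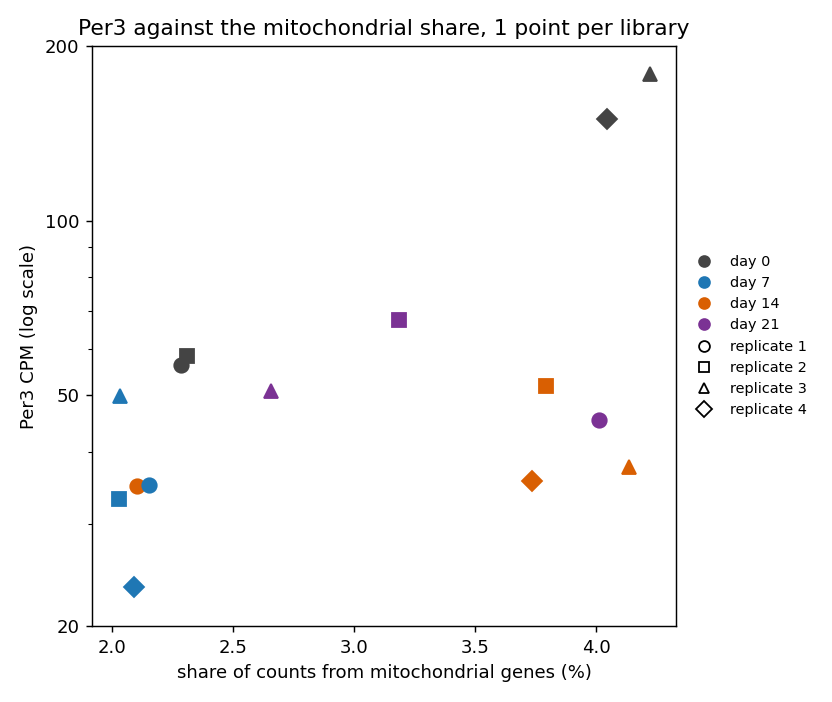
Per3 CPM (log scale) against the share of counts from mitochondrial genes (%), 1 point per library, coloured by day. The 2 day 0 libraries over 4% had 149 and 179 CPM, while day 14 replicate 3, also over 4%, had 37.6 CPM.

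Ciart encodes CHRONO, a repressor of BMAL1 and CLOCK, and its promoter carried 3 E-boxes. It had 15.5, 15.6, 50.9 and 37.3 CPM at day 0 and 7.82, 5.19, 10.5 and 10.2 CPM at day 7, where no library reached day 0. At day 14 it was at 9.81, 23.5, 27.3 and 19.6 CPM, so that 3 of 4 libraries were back within the day 0 range. At day 21 it was at 10.8, 20.2 and 11.6 CPM. The log2 fold changes were -1.82 ± 0.40, -0.57 ± 0.39 and -1.07 ± 0.43. Against day 0 replicates 1 and 2 alone these values were -0.90, 0.35 and -0.15, and adding a term for the mitochondrial share to the fit gave -0.82 at day 7.

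Dbp, the D-box activator and a direct target of BMAL1 and CLOCK, had a log2 fold change at day 14 that was the lowest of the 10 members with all 4 day 0 libraries, but not with replicates 1 and 2 alone, where Nr1d1 was lower (-2.73 against -2.31). It had 53.5, 41.3, 141 and 95.8 CPM at day 0 and 29.6, 8.82, 39.8 and 5.71 CPM at day 7, a 6.97-fold span within day 7. It had 12.9, 12.4, 8.58 and 4.71 CPM at day 14 and 19.0, 18.4 and 16.9 CPM at day 21. Every later library was below every day 0 library, by a narrow margin in day 7 replicate 3. The mean was 82.9 ± 45.3 CPM (SD, n = 4) at day 0 and 3.95-fold, 8.59-fold and 4.58-fold lower afterwards, with log2 fold changes of -1.98 ± 0.52, -3.10 ± 0.55 and -2.19 ± 0.58. Against day 0 replicates 1 and 2 alone they were -1.19, -2.31 and -1.41. Dbp shares 539 exonic bases with Sphk2 on the opposite strand, which had 420 to 736 counts per library, more than the 78 counts of Dbp in its lowest library.

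Tef encodes a second D-box activator with a flatter daily rhythm than Dbp. It had 377, 333, 491 and 479.7 CPM at day 0 and 181, 190.4, 236 and 142 CPM at day 7. It had 158, 192, 132 and 138 CPM at day 14 and 157, 271 and 167 CPM at day 21. No later library reached day 0. Its log2 fold changes at days 7, 14 and 21 were -1.16 ± 0.20, -1.44 ± 0.20 and -1.08 ± 0.22, and against either pair of day 0 libraries they stayed between -1.68 and -0.87. Tef, Nr1d1, Nr1d2 and Dbp were thus the members whose later libraries were below all day 0 libraries on each of the 3 days.

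Per length of exon, the order of the levels at day 0 was Nr1d1 (55.5 ± 13.1 CPM per kb, SD, n = 4), Tef (53.4 ± 9.85), Per1 (45.2 ± 24.3), Nr1d2 (31.4 ± 4.86), Dbp (27.7 ± 15.1), Per2 (20.4 ± 11.1), Ciart (13.2 ± 7.69), Per3 (11.5 ± 6.55), Arntl (1.58 ± 1.11) and Npas2 (0.606 ± 0.294). The neighbours from Nr1d1 to Per3 did not differ beyond their spread, and the one step clear of it was from Per3 to Arntl. At day 14 Tef (19.7 ± 3.41) and Per1 (19.1 ± 1.60) led, and Dbp (3.22 ± 1.28) had moved below Per3 (4.16 ± 0.832), within their spread.

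The members also varied within a day. The SD of log2 CPM around the day means was 0.89 for Dbp, 0.87 for Npas2 and 0.85 for Arntl, which placed them at percentiles 96.7, 96.5 and 96.1 of all tested genes. Ciart (percentile 89.1), Per3 (82.2), Per1 (81.8), Per2 (81.3) and Nr1d1 (77.3) came next, and Nr1d2 (57.4) and Tef (55.0) were near the middle. By contrast Csnk1d, the kinase that phosphorylates the period proteins, was at percentile 0.0573.

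Within day 7 the variation ran in opposite directions for Arntl and Dbp. Replicates 2 and 4 had the higher Arntl (17.0 and 29.0 CPM) and the lower Dbp (8.82 and 5.71 CPM), and replicates 1 and 3 the reverse. The difference of log2 CPM, Arntl minus Dbp, was -1.77, 0.94, -2.45 and 2.32 in replicates 1 to 4 of day 7, and -1.91, -0.87, -5.24 and -3.71 at day 0. It was 0.16, -0.57, 1.14 and 2.22 at day 14 and -0.12, -0.61 and -0.88 at day 21. The mitochondrial share was 2.03% to 2.15% in all day 7 libraries, so it did not move with the difference there, as it had at day 0. The summed CPM of the 4 B and plasma cell markers (Cd79a, Ms4a1, Mzb1 and Jchain) did at day 7, at 281, 46.3, 155 and 25.9 in replicates 1 to 4. It was high there in the libraries with less Arntl and more Dbp, and without Jchain it was 54.6, 22.4, 66.8 and 14.1. At day 0 the reverse held for the 4 markers, at 97.5, 93.5, 65.6 and 38.4 in replicates 1 to 4. The sum was high there in the libraries with more Arntl and less Dbp. At day 14 it was lowest in replicate 2 (20.03), where the difference was lowest. At day 21 it was highest in replicate 1 (406.9), where the difference was highest. Day 7 replicate 4 also stood apart in the cardiac muscle markers (664, against 31.4 to 61.5) and the adipose markers (137, against 9.43 to 29.0). Their part in the difference was not tested.

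**Figure D4:**
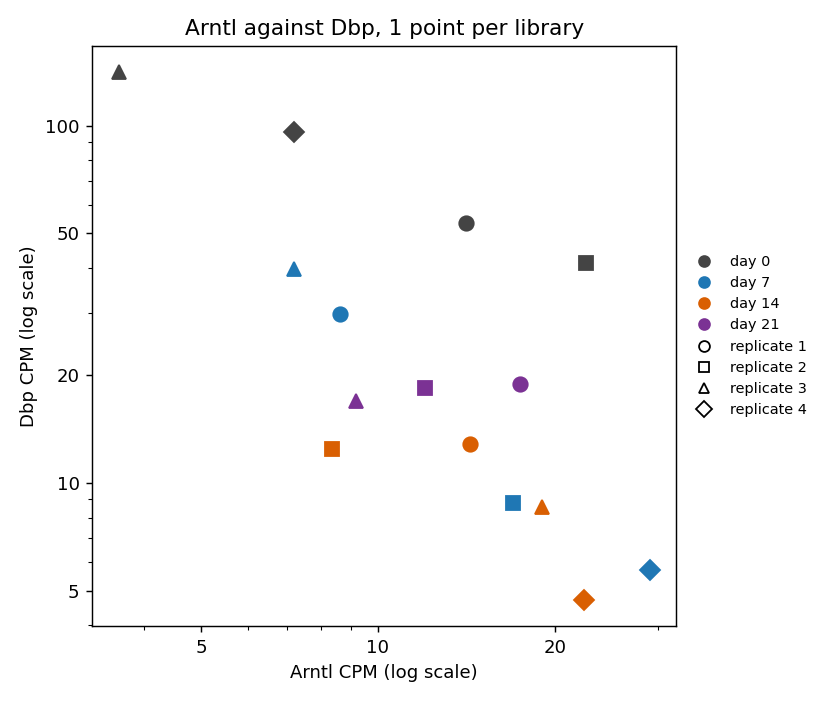
Dbp CPM against Arntl CPM (both log scales), 1 point per library, with colour for the day and shape for the replicate number. Within days 0 and 7 libraries with more Arntl had less Dbp, within day 21 those with more Arntl had slightly more Dbp (16.9 to 19.0 CPM), and at a similar Arntl level (14.1 and 14.4 CPM) day 0 replicate 1 had 53.5 CPM of Dbp and day 14 replicate 1 had 12.9 CPM.

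The likeness of the members was described over the 15 libraries, which differ in day as well as in replicate. Pearson's r of log2 CPM with Dbp was 0.933 for Nr1d2, 0.902 for Tef, 0.847 for both Nr1d1 and Per3, 0.708 for Per2, 0.595 for Per1, 0.452 for Ciart, -0.606 for Npas2 and -0.719 for Arntl. Arntl and Npas2 were related at 0.762. After each day's mean was taken away, Arntl and Dbp stood at -0.874, Arntl and Npas2 at 0.832, and Dbp with Nr1d2 at 0.871, Per3 at 0.721, Tef at 0.643, Nr1d1 at 0.412, Ciart at 0.339, Per2 at 0.302 and Per1 at 0.131. These values describe the 15 libraries and were not tested.

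Outside the set, the genes most like Arntl over the 15 libraries were Rock2 (r = 0.821), Nup98 (0.818), Nrip2 (0.811), Klhl13 (0.806) and Arih1 (0.802), and those most opposite were Gnl1 (-0.845), Rpp21 (-0.844), Naa60 (-0.806), Zfp346 (-0.803) and Mbd2 (-0.796). For Dbp the most alike were Epm2a (0.920), Hlf (0.913), Gimap6 (0.906), Adck2 (0.898) and Smim14 (0.897), and the most opposite Pign (-0.894), Syt12 (-0.886), Steap2 (-0.877), Glipr2 (-0.869) and Adamts9 (-0.869). The lists depended on the day means: of each 5 named, 1 (Arntl, alike), 0 (Arntl, opposite), 0 (Dbp, alike) and 1 (Dbp, opposite) were named again after day means were taken away. Hlf, the third D-box activator, is the one gene among these 20 that the lists of clock genes below also hold.

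Of 16 further clock genes, 15 were tested and Rorb, at 0 to 11 counts, was not. Among the 15, 2 were called higher and 2 lower at day 7, 3 higher and 3 lower at day 14, and 2 higher and 2 lower at day 21, with median log2 fold changes of -0.04, -0.14 and 0.03. These counts of 4, 6 and 4 stand against the same 16.1%, 23.1% and 22.5% of all tested genes in either direction. Adjusted p-values are from edgeR's quasi-likelihood test over all tested genes.

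The repressor Cry2 and the D-box activator Hlf fell on all 3 days. Cry2 was at 85.4, 89.6, 131 and 106 CPM at day 0 and between 30.7 and 67.8 CPM in every later library. Its log2 fold changes were -0.98 ± 0.19 (adjusted p = 0.00201), -1.43 ± 0.19 (5.35e-05) and -1.16 ± 0.21 (0.000692). Hlf was at 45.6, 39.6, 66.5 and 60.5 CPM at day 0 and had its lowest mean at day 14, at 12.8, 10.7, 12.4 and 9.96 CPM. Its log2 fold changes were -1.11 ± 0.27 (adjusted p = 0.00839), -2.21 ± 0.28 (4.10e-05) and -1.43 ± 0.30 (0.00236). Cry2 shares 295 exonic bases with the opposite-strand transcript D930015M05Rik, which had 4 to 63 counts per library.

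Bhlhe40, the gene for the E-box repressor DEC1, rose on all 3 days. It was at 61.7, 69.9, 83.7 and 87.9 CPM at day 0 and between 95.5 and 193 CPM in every later library, with log2 fold changes of 0.96 ± 0.19, 0.96 ± 0.19 and 1.14 ± 0.20 (adjusted p = 0.00226, 0.00118 and 0.000614). The calls of Bhlhe40 and Cry2 held in every alternative tried, and those of Hlf in all but 3, all at day 7. These were the fit with a term for the mitochondrial share, the libraries under 2.5% mitochondrial counts and day 0 replicates 1 and 2 alone, where the log2 fold change was -0.997, -0.81 and -0.81 (adjusted p = 0.0774, 0.0995 and 0.131).

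Nfil3, which encodes the D-box repressor that opposes DBP, TEF and HLF, was higher at day 14 in all 4 libraries (25.3, 18.9, 18.7 and 16.8 CPM, against 9.76 to 12.6 CPM at day 0). Its log2 fold change there was 0.88 ± 0.27 (adjusted p = 0.0219), and the call was lost without day 0 replicate 2, 3 or 4 or day 14 replicate 1 (0.73 to 0.86, adjusted p = 0.0509 to 0.0735). The call was also lost with day 0 replicates 1 and 2 alone (0.76, adjusted p = 0.146) and with replicates 3 and 4 alone (0.97, adjusted p = 0.0708). At day 7 Nfil3 was at 12.1, 20.4, 11.04 and 31.2 CPM, high in the 2 libraries with high Arntl. At day 14 it was instead lowest in replicate 4, which had the most Arntl. The day 7 call (0.79 ± 0.27, adjusted p = 0.0462) was lost in 15 of 20 alternatives. Among them were those without any 1 day 0 library or without day 7 replicate 2 (0.72 to 0.84, adjusted p = 0.0611 to 0.121). Without day 7 replicate 4 the value fell to 0.42 (adjusted p = 0.187). At day 21 the value was 0.65 ± 0.29 (adjusted p = 0.108).

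**Figure D5:**
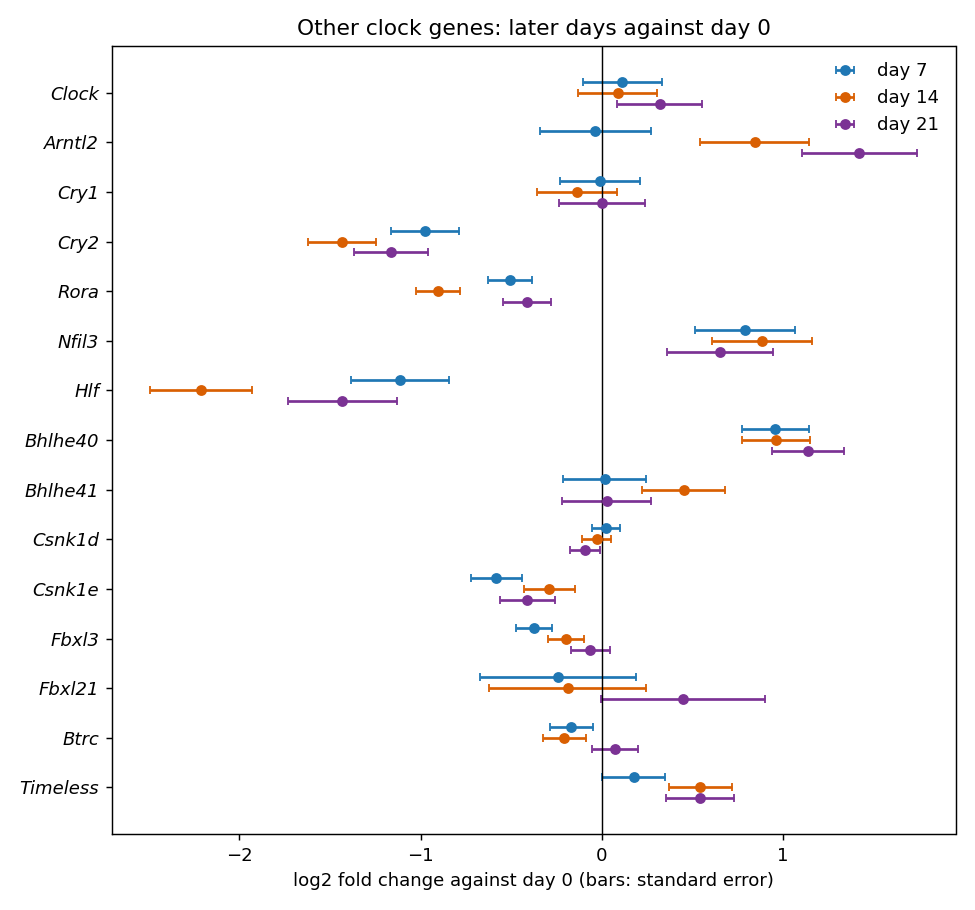
log2 fold change of the 15 further clock genes tested at days 7, 14 and 21 against day 0, with bars of 1 standard error. Cry2 and Hlf were to the left of 0 and Bhlhe40 to the right on all 3 days, while Clock, Cry1 and Csnk1d stayed near 0.

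Arntl2, the relative of Arntl, rose at day 21 to 9.89, 6.44 and 6.76 CPM from 1.49, 1.87, 4.70 and 3.40 CPM at day 0 (log2 fold change 1.42 ± 0.32, adjusted p = 0.00362). Its day 14 call (0.84 ± 0.30, adjusted p = 0.0414) was lost in 10 of 20 alternatives. Among them were those without day 0 replicate 1, 2 or 4 or day 14 replicate 1, 3 or 4 (0.60 to 0.92, adjusted p = 0.0584 to 0.131). The log2 fold change shrank to 0.32 with day 0 replicates 3 and 4 alone (adjusted p = 0.400). Among libraries over 3.5% mitochondrial counts it was 0.27 (adjusted p = 0.543). Rora, an activator that competes with the REV-ERB proteins, fell at day 14 (-0.90 ± 0.12, adjusted p = 6.74e-05). At day 7 it was lower at an adjusted p of 0.00799 but by less than 1.5-fold (-0.51 ± 0.12).

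Clock and Cry1 were not called on any day. Clock, the usual partner of BMAL1, had log2 fold changes of 0.11 ± 0.22, 0.09 ± 0.22 and 0.32 ± 0.23 (adjusted p = 0.742, 0.793 and 0.333). Its day 0 libraries had 103, 117, 51.7 and 75.04 CPM, high in replicates 1 and 2 as Arntl was. Cry1 had log2 fold changes of -0.01 ± 0.22, -0.14 ± 0.22 and 0.00 ± 0.24 (adjusted p = 0.980, 0.671 and 0.998). Both genes changed sign on each day under at least 1 alternative, and Clock was called at day 21 under 1 alternative.

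The 8 clock output genes, which the clock drives without being part of it, were called at 1 higher and 3 lower at day 7, 1 higher and 3 lower at day 14, and 0 higher and 2 lower at day 21. These counts of 4, 4 and 2 of 8 stand beside 16.1%, 23.1% and 22.5% of all tested genes, so that the last was near the share of all genes. Por, the reductase that serves cytochrome P450 enzymes, fell by 0.87, 1.48 and 1.58 on the log2 scale (adjusted p = 0.000437, 2.99e-06 and 6.20e-06) and held in every alternative. Tsc22d3, a leucine zipper gene that also answers to glucocorticoids, fell by 1.36, 1.48 and 1.12 (adjusted p = 0.00941, 0.00356 and 0.0305). Usp2, a deubiquitinase gene, fell by 0.99 at day 7 and 1.28 at day 14 (adjusted p = 0.0291 and 0.00557) and was at -0.89 ± 0.34 at day 21 (adjusted p = 0.0595). Leo1, which encodes a subunit of an elongation complex, rose by 0.80 ± 0.22 and 0.70 ± 0.22 at days 7 and 14 (adjusted p = 0.0159 and 0.0216). The median log2 fold changes of the 8 were -0.13, -0.26 and -0.18. Some of these calls were lost when 1 library was left out, with log2 fold changes of similar size in most cases: that of Usp2 at day 7 was lost without day 0 replicate 3 or 4 or day 7 replicate 1, 2 or 3 (log2 fold change -1.02 to -0.75, adjusted p = 0.0586 to 0.0994), that of Tsc22d3 at day 21 without day 0 replicate 3 or 4 or day 21 replicate 2 or 3 (-1.19 to -0.94, adjusted p = 0.0606 to 0.113), and that of Leo1 without day 0 replicate 4 at day 7 (0.66, adjusted p = 0.0608) and without day 0 replicate 3 or 4 at day 14 (0.50 and 0.57, adjusted p = 0.0584 and 0.0770). With day 0 replicates 1 and 2 alone, Tsc22d3, Usp2 and Leo1 lost every call (adjusted p = 0.0576 to 0.519). There Tsc22d3 stood at -0.95, -1.08 and -0.73 at days 7, 14 and 21, Usp2 at -0.33 and -0.62 at days 7 and 14, and Leo1 at 0.37 and 0.28.

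Glucocorticoids can reset clocks in peripheral tissues, and 9 glucocorticoid-responsive genes were placed beside them, 8 of which were tested. They were called at 0 higher and 2 lower at day 7, 1 higher and 2 lower at day 14, and 2 higher and 2 lower at day 21, with medians of -0.22, -0.23 and 0.43. The same 16.1%, 23.1% and 22.5% of all tested genes were called, and 1 of the lower calls on each day was Tsc22d3, already counted among the clock output genes. Klf9, a repressor that follows both glucocorticoids and the clock, fell by 0.93, 1.67 and 0.88 (adjusted p = 0.0281, 0.000556 and 0.0447). Mt1, a metallothionein gene, rose by 1.76 at day 14 and 2.00 at day 21 (adjusted p = 0.00636 and 0.00451), and Sgk1, a kinase gene, by 1.05 at day 21 (adjusted p = 0.0260). The call of Klf9 was lost without day 0 replicate 2 or 4 or day 7 replicate 1, 2 or 3 at day 7 (-0.94 to -0.78, adjusted p = 0.0556 to 0.0828) and without day 0 replicate 1, 2 or 4 or day 21 replicate 1 or 3 at day 21 (-0.96 to -0.72, adjusted p = 0.0564 to 0.155). At day 21 Mt1 lost its call without day 21 replicate 1 (1.24, adjusted p = 0.0538) and Sgk1 without day 0 replicate 1 or 2 or day 21 replicate 1 (0.67 to 0.86, adjusted p = 0.0837 to 0.184). With day 0 replicates 3 and 4 alone, Mt1 lost its calls at days 14 and 21 (1.46 and 1.68, adjusted p = 0.0842 and 0.0615). Sgk1 then lost its call at day 21 (0.56, adjusted p = 0.254) and Klf9 at days 7 and 21 (-0.74 and -0.70, adjusted p = 0.137 and 0.187). With replicates 1 and 2 alone Klf9 lost its day 7 call (-1.14, adjusted p = 0.0564).

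Fkbp5 and Zbtb16, which in many tissues respond strongly to glucocorticoids, were not called and were among the most variable genes within a day, at percentiles 98.4 and 99.7. Zbtb16 was at 56.3, 247, 12.3 and 24.7 CPM at day 0 and at 9.91, 80.7, 9.50 and 164 CPM at day 7. Within day 7 it was high in replicates 2 and 4, the libraries with more Arntl and less Dbp. At day 14 the reverse held, with 97.4, 62.6, 10.2 and 9.24 CPM, high in replicates 1 and 2, which had less Arntl and more Dbp. Day 21 libraries had 108, 154 and 14.1 CPM of Zbtb16. Fkbp5 was at 72.4, 168, 47.2 and 200.1 CPM in the day 7 libraries. Its log2 fold changes were 0.75 ± 0.61, 1.399 ± 0.62 and 1.79 ± 0.66 at days 7, 14 and 21 (adjusted p = 0.395, 0.0956 and 0.0512). It was at 69.3, 115, 34.3 and 72.3 CPM at day 0, at 429, 217, 59.3 and 61.0 CPM at day 14 and at 354, 291.5 and 109.7 CPM at day 21, and at both days 2 libraries lay above every day 0 library.

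Other changes in the lungs accompanied those of the clock genes. The summed CPM of the 8 lung markers was 45951 to 60234 at day 0, 21877 to 31828 at day 7, 17001 to 24785 at day 14 and 11590 to 13369 at day 21. Sftpc, of alveolar type II cells, and Scgb1a1, of club cells, made up most of it at day 0. The other 6 summed to 3848 to 5371 at day 0, 4843 to 5823 at day 7, 5132 to 8152 at day 14 and 5313 to 6270 at day 21. Among them the collagen gene Col1a1 had means of 313, 1437, 2282 and 2483 CPM on the 4 days and Ager, of alveolar type I cells, 2300, 2468, 2680 and 1908 CPM. Col1a1 spread widely, at 5084, 1495, 1558 and 991 CPM at day 14 and 3302, 1265 and 2881 CPM at day 21. Pecam1 (812, 637, 537 and 564 CPM), Cdh5 (772, 603, 541 and 577) and Ptprc (185, 141, 140 and 131) had lower means after day 0. Foxj1 had means of 93.6, 121, 50.2 and 66.6 CPM. The summed CPM of the 5 adipose markers was 19.8 to 68.7 at day 0, 9.43 to 137 at day 7, 1.3 to 3.51 at day 14 and 0.741 to 3.03 at day 21. That of the 7 cardiac muscle markers was 29.3 to 293, 31.4 to 664, 27.9 to 44.4 and 21.0 to 778 on the 4 days. The B and plasma cell markers did not move as one. The B cell markers Cd79a and Ms4a1 had means of 33.4 and 17.5 CPM at day 0 and 8.68 and 3.44 CPM at day 21, and Jchain had means of 19.3, 87.5, 29.5 and 230.1 CPM on the 4 days. These marker genes were singled out after their values were seen. Their part in the levels of the clock genes was not tested.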

How the data were processed

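Whole-lung polyadenylated RNA was sequenced and the authors trimmed reads with TrimGalore, aligned them to mm10 with HISAT2 2.1.0, left out multi-mapped reads and counted genes with HTSeq 0.6.0. The values used are the raw counts per gene deposited by the authors, and the annotation release and strand setting are not given in the sources used here. Gene symbols were taken from GENCODE M21 (33267 of 33340 identifiers matched).

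CPM are counts over TMM-scaled library sizes in edgeR 4.0.16 (R 4.3.3), with log2 CPM at a prior count of 2. Genes passing filterByExpr were fitted with glmQLFit over all 15 libraries by day group, tested with glmQLFTest and adjusted by Benjamini-Hochberg over the 17457 genes. A standard error is the log2 fold change over the root of its F statistic. The fit was tested on simulated data. The members and gene lists were chosen with earlier results of these data known. All members were named, as were listed genes called at least once, Clock, Cry1, Cry2 and Nfil3, and the 5 genes most and least correlated with Arntl and Dbp. A listed gene is not reported here. Csnk1d, Fkbp5 and Zbtb16 were named after their values were seen. Alternatives were limma 3.58.1 voom, DESeq2 1.42.0, other scalings, filters and terms, and left-out libraries.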

Additional observations from a re-analysis of the deposited data

Results flagged for a closer look

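Per3 in day 14 replicate 2 stood at 51.9 CPM, apart from 34.9 to 37.6 CPM in the other 3 libraries of that day, a gap that passed Dixon's 95% limit for 4 values. It was the 1 such case among 75 groups of 4 libraries examined, and chance alone gives about 5% of groups.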

How the results depend on the processing

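Counts of genes called moved mostly with the day 0 libraries used. The settings with day 0 replicates 1 and 2 only or 3 and 4 only, and those restricted by mitochondrial share, were chosen after seeing the data. With day 0 replicates 1 and 2 only, 3, 4 and 2 members were called at days 7, 14 and 21 in place of 8, 7 and 5, 2 further clock genes at day 7, 1 clock output gene at day 7 and 1 at day 14, and 0 glucocorticoid-responsive genes at day 7. With replicates 3 and 4 only, day 21 gave 8 members, 4 clock output genes and 1 glucocorticoid-responsive gene, and day 7 gave 1 glucocorticoid-responsive gene. Among libraries under 2.5% mitochondrial counts (2 of day 0, all of day 7), day 7 gave 4 members, 2 further clock genes and 1 clock output gene. Among libraries over 3.5% (2 of day 0, 3 of day 14), day 14 gave 9 members, 8 lower and 1 (Arntl) higher; day 21 could not be treated this way, having 1 library over 3.5% and 0 under 2.5%. With the mitochondrial share as a covariate, day 7 gave 3 members, 2 further clock genes, 1 clock output gene and 1 glucocorticoid-responsive gene. Without a fold threshold, day 7 gave 7 further clock genes. The cause was not tested.

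Leaving out 1 library at a time gave 6 to 9, 7 to 7 and 3 to 7 members at days 7, 14 and 21, 2 to 4 clock output genes at day 7 and 1 to 3 at day 21, and 1 to 2 glucocorticoid-responsive genes at day 7 and 1 to 3 at day 21. The 3 members at day 21 arose without day 0 replicate 3 or 4 or day 21 replicate 1 or 3, and the 1 glucocorticoid-responsive gene at day 21 without day 21 replicate 1. DESeq2 called 9, 7 and 7 members and limma voom 8, 7 and 4. Each count of 9 at day 7 was 8 lower and 1 (Npas2) higher; it arose in DESeq2, with no filter, with the 2 groups alone, without day 7 replicate 3 and with day 0 replicates 3 and 4 only.

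Replicate numbers were not taken as pairs in the main fit, and whether same-numbered libraries shared a batch was not tested. Deviations of same-numbered libraries correlated at -0.24 to 0.40, over 0.1 in 8 of 21 pairs, and 10 of 21 matched best with their own number. With the replicate block, members called were 8, 7 and 4 and clock output genes at day 21 were 1 in place of 2.

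Only 3 or 4 libraries a day, and an hour of collection not given in the sources used here, limit these comparisons. Depth limits them less, since the members had 19 to 8598 counts per library.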
